A study of Mus musculus with 7 samples.

Results

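The genes of GABA and glycine transmission were examined in the ventrolateral part of the ventromedial hypothalamus (VMH), a field of mostly glutamatergic, estrogen-sensitive neurons that receives inhibitory input from its surroundings. They are 28 genes chosen by name, of 48321 in the deposited count tables: 12 subunits of the GABA-A receptor, 2 of the GABA-B receptor and 4 of the glycine receptor, with 10 genes for making, packing, taking up and breaking down the transmitters, for the inhibitory synapse and for the chloride gradient. Ovariectomized female mice received 1 µg of estradiol benzoate (EB), a long-acting estradiol ester, under the skin (4 mice), or vehicle (3 mice). The region was dissected by hand 4 hours later, and each RNA-seq library came from 1 mouse. Both groups lacked ovaries, and both came from a colony of mixed background with 129/Sv ancestry that goes back to a floxed Esr1 line. The age of the mice, the vehicle and the carriage of the floxed allele were not given in any source used here.

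GABA opens a chloride channel, the GABA-A receptor, a ring of subunits that usually holds alpha and beta subunits with a gamma, delta, epsilon or theta subunit. It also acts through the GABA-B receptor, an obligate pair of Gabbr1 and Gabbr2 products that couples to G proteins. Glycine opens a related chloride channel, and in both cases the chloride gradient, set by the importer Slc12a2 and the exporter Slc12a5, decides whether opening the channel inhibits the cell.

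Library totals ran from 22311424 to 33302293 counts in EB mice and from 21037303 to 30909554 in vehicle mice, and the 28 genes took 147105 to 206181 counts in EB libraries and 153934 to 208669 in vehicle libraries. Levels are CPM, counts divided by the TMM-scaled library size, and the groups were compared with edgeR's quasi-likelihood test, in which p was adjusted by Benjamini-Hochberg over the 18387 genes tested and a gene was called under 0.05. Pgr, the estrogen-induced progesterone receptor gene, served as a check of the treatment and averaged 207.5 ± 17.6 CPM in EB mice and 82.2 ± 6.70 CPM in vehicle mice (SD, n = 4 and n = 3), a log2 change of 1.34 ± 0.09 (SE) with an adjusted p of 2.26e-06 by edgeR. Among VMH markers, Fezf1 stood at 127.8 ± 18.2 CPM with EB and 139.7 ± 9.53 CPM with vehicle and Esr1 at 192.1 ± 30.2 CPM with EB and 222.8 ± 81.6 CPM with vehicle, while Nr5a1, a transcription factor gene of the VMH, was low at 2.52 ± 1.11 CPM with EB and 2.03 ± 1.02 CPM with vehicle. Of all 8 VMH markers, Pgr among them, 5 had a negative log2 change and 3 a positive one, with a median of -0.17. At an unadjusted p under 0.05 by edgeR, Nkx2-1 (log2 change -0.56) and Adcyap1 (-0.24) were lower, and Pgr and Slc17a6 (0.34) higher. Only Pgr was called. The summed level of the 8 ran from 1580 to 1844 CPM in EB mice and from 1402 to 1953 CPM in vehicle mice.

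None of the 26 genes that could be tested was called, against 0.952% of all tested genes (137 higher and 38 lower); at an adjusted p under 0.1 the count was also 0, against 1.27%. At an unadjusted p under 0.05, 3 of the 26 were lower with EB (Gabra4, Gabra5 and Gabrb2) and 0 were higher; over all tested genes 9.04% passed that threshold, 4.18% lower and 4.87% higher. DESeq2 called 1 of the 28 genes, Gabra4, where it called 1.96% of all genes it tested, and limma-voom called 0, where it called 0.848%; each gave 3 genes at an unadjusted p under 0.05. The log2 change was negative for 19 of the 26 genes and positive for 7, with a median of -0.05 against -0.01 over all tested genes, 51.6% of which were negative. Single mice of both groups moved this: 22 were negative with a median of -0.11 without vehicle 1, 15 with a median of -0.03 without vehicle 2, and 15 with a median of -0.04 without vehicle 3. The counts were 22 (median -0.07) without EB 1, 18 (-0.07) without EB 2, 19 (-0.04) without EB 3 and 17 (-0.04) without EB 4. With all mice, the log2 change ran from -0.41 for Gabra4 to 0.20 for Gad2. The 95% interval of the change lay within ±0.5 on the log2 scale for 19 genes and within ±1 for 25. Among genes with at least 50 CPM, 18 of the set's 23 were negative, against 55.4% of 3792 genes. The summed level of 8 pan-neuronal markers, all tested, ran from 1460 to 1536 CPM in EB mice and from 1434 to 1717 CPM in vehicle mice. That of 6 endothelial markers, all tested and none at 0 in all libraries, ran from 71.0 to 90.4 CPM in EB mice and from 88.9 to 123.2 CPM in vehicle mice; 5 of the 6 had a negative log2 change, 3 at an unadjusted p under 0.05 and 0 called, with a median of -0.37. All 10 astrocyte markers and all 7 mural and fibroblast markers were negative, with medians of -0.15 and -0.24. Markers of arcuate neurons, 6 of 7 tested, went the other way. Of the 6, 5 were positive, 1 at an unadjusted p under 0.05 and 0 called, with a median of 0.43. The summed level of the 7 ran from 38.0 to 82.9 CPM in EB mice and from 44.5 to 57.0 CPM in vehicle mice. The part of any of these cell types in the counts was not tested. In bulk tissue, fewer cells of a type and less RNA per cell cannot be told apart.

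**Figure D1:**
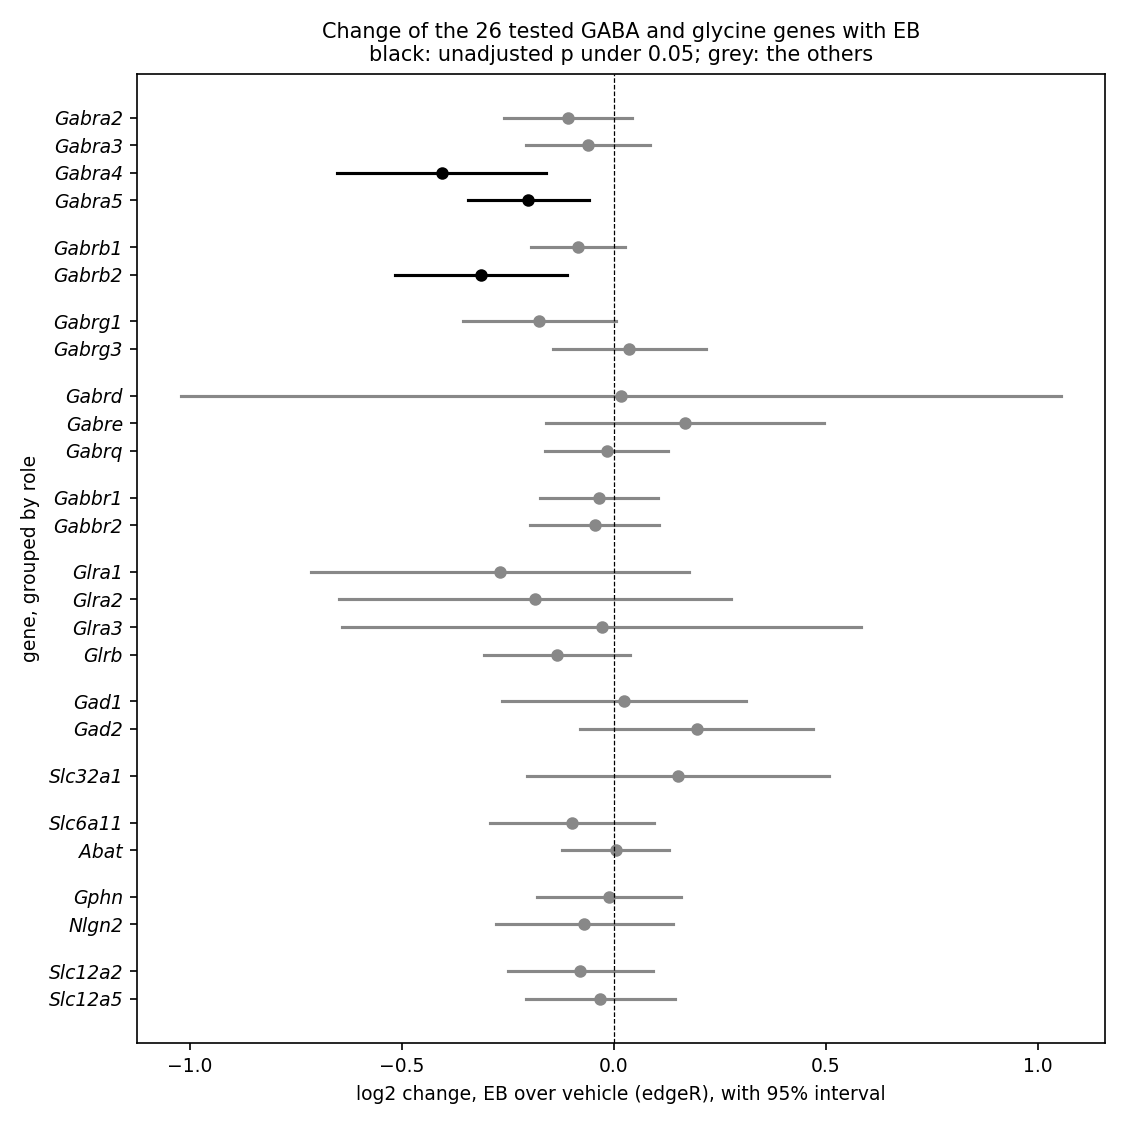
Log2 change (EB over vehicle, x axis) with its 95% interval from edgeR for the 26 tested genes, grouped by role from receptor subunits at the top to chloride cotransporters at the bottom; black marks the 3 genes with an unadjusted p under 0.05. Every interval but those of Gabra4, Gabra5 and Gabrb2 crosses 0, and that of Gabrd, at about 1 CPM, is the widest, from -1.02 to 1.05.

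Compared per length, as CPM per kilobase of exon, the order of levels ran from Gad2, a GABA-synthesising enzyme gene, at 106.7 ± 15.5 over all 7 mice (SD, n = 7) to Gabrd at 0.347 ± 0.146. Gabrb1 followed Gad2 at 83.3 ± 3.93, then the GABA transporter gene Slc6a11 at 74.5 ± 7.72, Gabra5 at 71.3 ± 6.18 and Gabra2 at 62.4 ± 5.03 CPM per kilobase. Gad1 lay near the lower end at 8.94 ± 1.37, beside the vesicular transporter gene Slc32a1 at 9.24 ± 1.71 and Glra1 at 7.33 ± 1.88 CPM per kilobase. From Gad2 down to Slc12a2 at 7.28 ± 0.44, each gene's range over the 7 mice overlapped that of its neighbour in the order. The step from Slc12a2 to Gabrd was the first without overlap. With the median transcript length in place of the joined exons, 14 of the 28 genes stayed within 3 places of their position and the largest shift was 9 places, so that the order is one of broad levels. Gabra6, an alpha subunit typical of cerebellar granule cells, had 0 counts in every EB library and 1 count in 1 vehicle library. Slc6a5, the glycine transporter of glycinergic neurons, had 16, 2, 1 and 10 counts in EB mice and 9, 9 and 0 counts in vehicle mice; neither could be tested. A count of 0 allows up to 0.0924 to 0.126 CPM in EB libraries and 0.095 to 0.132 CPM in vehicle libraries (3 counts per library), and such limits cover counting error only.

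**Figure D2:**
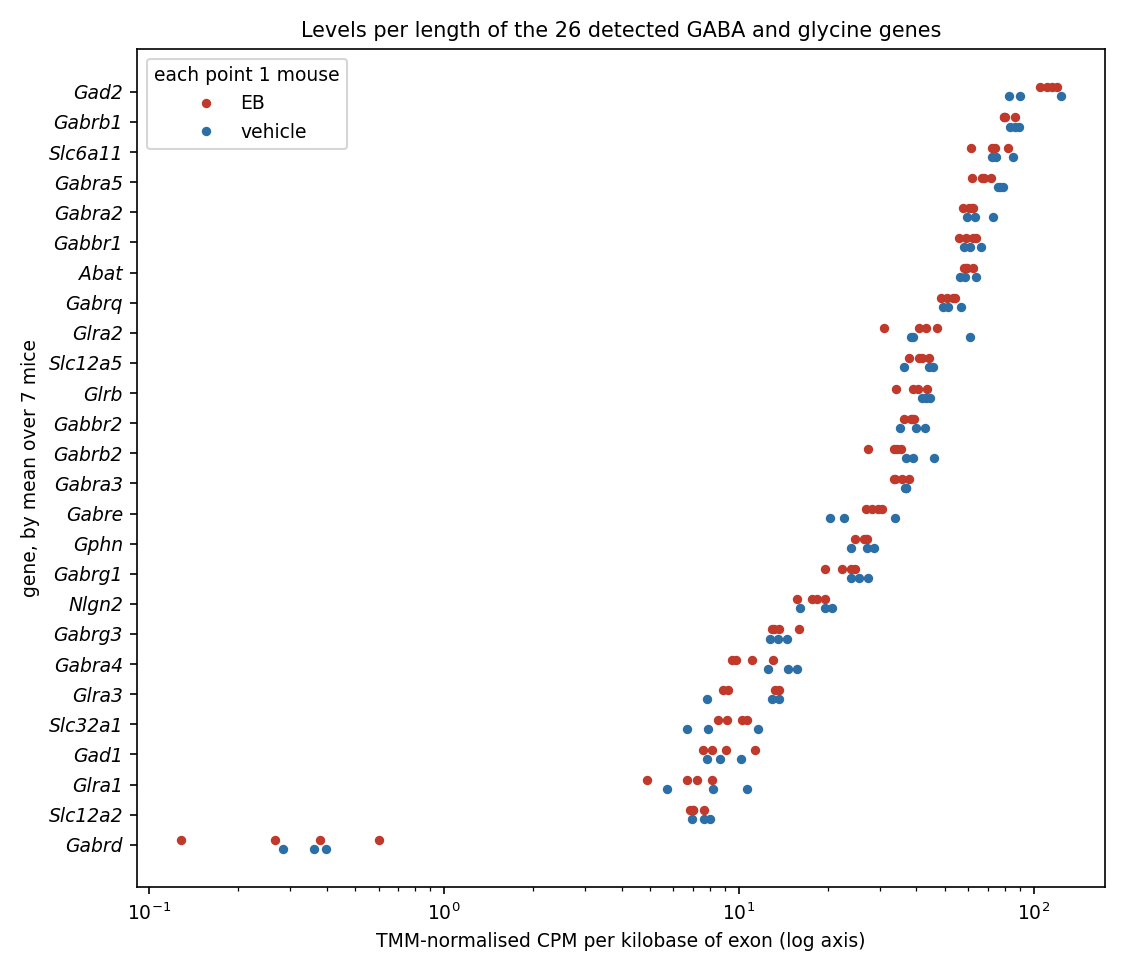
TMM-normalised CPM per kilobase of exon (log axis) of the 26 tested genes, ordered by their mean, with each mouse as a point, EB in red and vehicle in blue. Red and blue points lie over the same ranges in nearly every line, and Gabrd stands apart below the others.

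Among alpha subunit genes of the GABA-A receptor, Gabra4, whose product is found largely in extrasynaptic receptors, had the smallest p of the 26 genes. It stood at 67.2, 59.7, 79.6 and 57.6 CPM in EB mice, against 89.5, 96.1 and 76.6 CPM in vehicle mice. EB 1, 2 and 4 lay below all vehicle mice, and EB 3 lay just above vehicle 3, so that the groups overlapped by that pair. The means were 66.0 ± 9.93 CPM with EB and 87.4 ± 9.94 CPM with vehicle (SD, n = 4 and n = 3), a log2 change of -0.41 ± 0.11 (SE, 95% interval -0.65 to -0.16) with a p of 0.00333 and an adjusted p of 0.169 by edgeR. Gabra4 passed the threshold with DESeq2 (adjusted p = 0.0366), in edgeR with no filter on low counts (0.00899) and in edgeR without EB 3 (log2 change -0.51, adjusted p = 0.0429), within a range of adjusted p from 0.00899 to 0.577 over 17 alternatives. The summed level of 7 markers of amygdala, striatum and cortex ran from 115.7 to 143.7 CPM in EB mice, highest in EB 3, and from 141.2 to 178.8 CPM in vehicle mice, highest in vehicle 2, the mice in which Gabra4 was also highest. Of these markers, 0 of 7 were at 0 in all libraries, 6 could be tested, and 5 of the 6 had a negative log2 change. The part of neighbouring tissue in the Gabra4 values was not tested.

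Gabra5, an alpha subunit gene of extrasynaptic receptors that carry tonic inhibition, had a higher level per length and varied less between mice. It stood at 213.7, 201.4, 197.8 and 184.0 CPM in EB mice, against 229.2, 224.1 and 234.0 CPM in vehicle mice. All EB mice lay below all vehicle mice, by a gap smaller than the range within the EB group. The log2 change was -0.20 ± 0.07 (SE, 95% interval -0.34 to -0.06), with a p of 0.0089 and an adjusted p of 0.274 by edgeR. Groups that do not overlap, with EB lower, were found for 2 of the 26 genes (Gabra5 and Gabrb2) and for 3.99% of all tested genes; 0 of the 26 genes and 5.11% of all had EB all higher, so that 9.10% of all tested genes did not overlap in either direction.

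Gabrb2, a beta subunit gene, was the other one without overlap. It stood at 225.2, 213.3, 218.6 and 174.8 CPM in EB mice, against 235.3, 292.0 and 247.7 CPM in vehicle mice. EB 4 was the lowest mouse and vehicle 2 the highest, and the remaining 5 mice ran from 213.3 to 247.7 CPM. The means were 208.0 ± 22.6 CPM with EB and 258.3 ± 29.8 CPM with vehicle (SD, n = 4 and n = 3), and the log2 change was -0.31 ± 0.09 (SE, 95% interval -0.52 to -0.11) with a p of 0.00553 and an adjusted p of 0.216 by edgeR. With no filter on low counts its adjusted p was 0.0134, and over 17 alternatives it ran from 0.0134 to 0.782.

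The stretches of DNA before the RefSeq starts of these 3 genes are shown because they had the smallest p of the set. Each runs 5′ to 3′ on the gene's own strand and is taken from RefSeq (GRCm38.p6), and capitals mark the motif letters named below. Bases that GENCODE M21 gives as untranslated parts of exons were left out. Coding exons and exons of noncoding transcripts were not checked. For Gabra4 it is chr5:71658364-71658558 on the minus strand, for Gabra5 chr7:57510060-57510309 on the minus strand, and for the first of 3 Gabrb2 starts chr11:42420190-42420439 on the plus strand. The Gabra4 stretch ends at base -56 from the start and, by GENCODE M21, lies within Gabrb1 (chr5:71658113-72149037) on the opposite strand. The Gabrb2 stretch lies within Gabrb2 itself as GENCODE M21 gives it, from chr11:42419757 on.
Gabra4: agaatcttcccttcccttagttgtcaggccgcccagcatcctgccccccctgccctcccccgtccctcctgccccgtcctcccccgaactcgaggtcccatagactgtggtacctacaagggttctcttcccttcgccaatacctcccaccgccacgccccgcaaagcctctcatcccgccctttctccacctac
Gabra5: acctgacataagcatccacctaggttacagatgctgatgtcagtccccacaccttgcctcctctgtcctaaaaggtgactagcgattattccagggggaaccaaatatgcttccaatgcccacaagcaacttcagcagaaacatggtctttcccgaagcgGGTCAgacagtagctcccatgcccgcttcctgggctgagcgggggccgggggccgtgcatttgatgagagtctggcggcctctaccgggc
Gabrb2: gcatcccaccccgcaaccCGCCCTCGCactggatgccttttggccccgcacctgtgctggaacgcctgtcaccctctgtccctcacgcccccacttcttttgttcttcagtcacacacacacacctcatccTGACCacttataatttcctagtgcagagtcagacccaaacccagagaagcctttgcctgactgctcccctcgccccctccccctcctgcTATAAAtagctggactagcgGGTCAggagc

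In windows from 250 bases before to 50 bases after the start, 24 of the 28 genes matched RefSeq with 30 windows. The full estrogen response element, GGTCA and TGACC with any 3 bases between them, searched like the other motifs on both strands, was in 0 of the 30 windows and in 0.07% of 32851 windows of all genes. Its half-site GGTCA, which also lies within the full element, was in 23.3% of the gene set's windows (7 of 30, among them Gabra5, Gabrb2 and Gad2) and in 40.5% of all windows. The EGR motif GCGNGGGCG, read as its reverse complement in the Gabrb2 stretch, was in 16.7% of the set's windows against 5.55% of all, and TATAAA in 16.7% against 13.6%. The CRE motif TGACGTCA was in 0 of the 30 windows and in 1.79% of all windows. These are matches of letters in short windows, and GC content differed, with a median of 60.5% in the set's windows and 52.7% in all windows.

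The other tested alpha subunit genes had 95% intervals that included 0. Gabra2, the alpha subunit gene best known for anxiolytic drug action, averaged 461.2 ± 16.5 CPM with EB and 497.1 ± 54.0 CPM with vehicle (log2 change -0.11, 95% interval -0.26 to 0.04), and Gabra3 138.1 ± 7.61 CPM with EB and 144.1 ± 0.87 CPM with vehicle (-0.06, -0.21 to 0.08). Gabrb1 had the highest mean level of the receptor subunit genes per kilobase of joined exons, with a range that overlapped its neighbours', and stood below Gabbr1, Gabbr2 and Gabra2 with median transcript lengths. It stood at 1191, 1100, 1101 and 1105 CPM in EB mice, against 1145, 1234 and 1196 CPM in vehicle mice. EB 1 lay among the vehicle mice and the other 3 EB mice lay below all of them, and the log2 change was -0.08 (95% interval -0.19 to 0.03, adjusted p = 0.697 by edgeR). Of all the set's genes with at least 50 CPM, Gabrb1 varied least within groups, with an SD of 0.0554 on the log2 scale; 9.05% of 3792 genes at that level varied less.

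Gamma subunits anchor receptors at synapses and complete the benzodiazepine site. Gabrg1, a gamma subunit gene of hypothalamic and amygdala neurons, stood at 195.4, 188.8, 176.6 and 153.9 CPM in EB mice, against 215.0, 189.0 and 201.4 CPM in vehicle mice. The groups overlapped through EB 1 alone, and the log2 change was -0.18 ± 0.08 (SE, 95% interval -0.36 to 0.01) with an adjusted p of 0.569 by edgeR. Gabrg3 averaged 166.4 ± 16.9 CPM with EB and 162.3 ± 11.1 CPM with vehicle, a log2 change of 0.04. Of the subunits that stand in for gamma, the delta gene Gabrd was near 1 CPM in both groups (9 to 53 counts in EB libraries and 21 to 33 in vehicle libraries). Its 95% interval of -1.02 to 1.05 covers changes from 0.493-fold to 2.08-fold, which could not be detected with these mice at this depth. Its within-group SD was 0.744 on the log2 scale. The parts of depth and of spread between mice in that interval were not tested. The epsilon gene Gabre and the theta gene Gabrq, whose expression is concentrated in hypothalamus and brainstem, stood at 27.5 and 51.9 CPM per kilobase over all mice, against 0.347 for Gabrd. Gabre stood at 144.7, 139.8, 127.7 and 134.2 CPM in EB mice, against 107.7, 96.7 and 160.9 CPM in vehicle mice. The EB mice lay close together between vehicle 3 above and vehicle 1 and 2 below them, and the log2 change of 0.17 was 0.42 without vehicle 3 and 0.02 without vehicle 2. Gabrq averaged 276.5 ± 14.0 CPM with EB and 279.7 ± 19.9 CPM with vehicle.

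**Figure D3:**
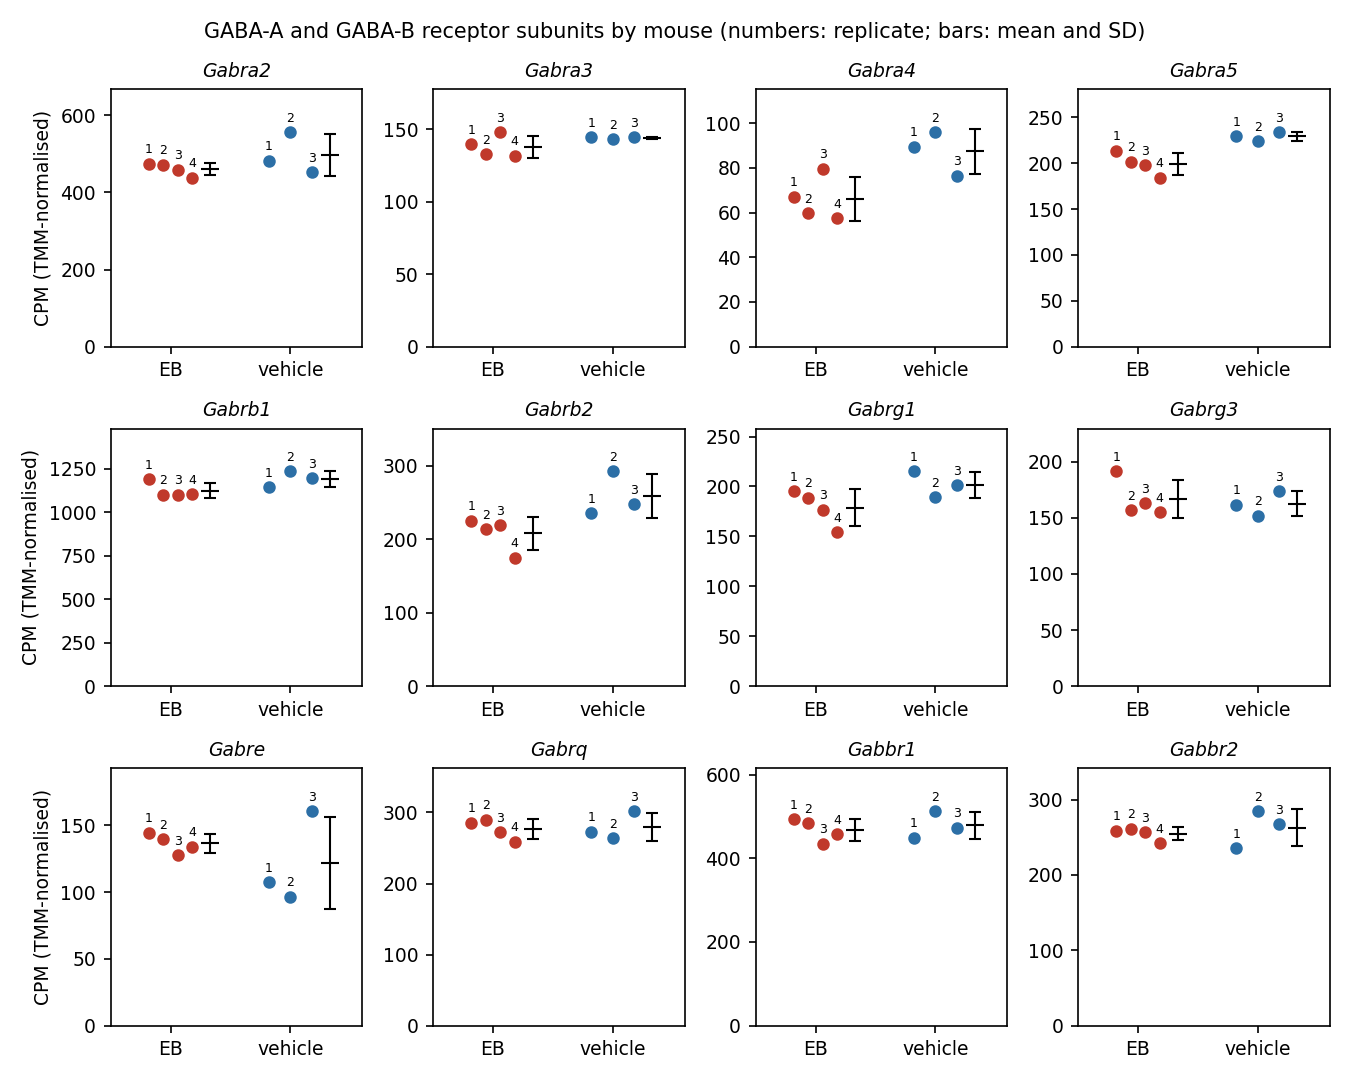
TMM-normalised CPM by mouse for 12 GABA receptor subunit genes, EB in red on the left and vehicle in blue on the right of each panel, with replicate numbers and the mean and SD as bars; each y axis starts at 0. The EB points lie below all vehicle points for Gabra5 and Gabrb2, and the groups overlap in the other 10 panels.

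Several of these genes lie in clusters, with positions on GRCm38 from GENCODE M21. Gabrg1, Gabra2, Gabra4 and Gabrb1 share 1398 kb of chromosome 5 (chr5:70751047-72149037), and their log2 changes were -0.18, -0.11, -0.41 and -0.08 in that order along the chromosome. Gabrg3 and Gabra5 share 793.6 kb of chromosome 7, with changes of 0.04 and -0.20. Gabre, Gabra3 and Gabrq share 586.6 kb of the X chromosome, with changes of 0.17, -0.06 and -0.02. Gabrb2 lies within 322.6 kb of chromosome 11 with Gabra6, which had 1 count in all libraries together. Gabra4 and Gabrb1 are read from opposite strands and overlap by 46 exonic bases at their starts, 0.756% of the Gabra4 exons. Other opposite-strand genes overlap 4.98% of the exonic bases of Gabra5 (Gm9962), 5.84% of Glra1 (Gm12236) and 3.92% of Gphn (Gm48226), and whether counting used strand was not given in any source used here.

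Both GABA-B subunit genes were abundant and had narrow intervals. Gabbr1, the subunit that binds GABA, averaged 467.4 ± 26.4 CPM with EB and 478.7 ± 32.3 CPM with vehicle (log2 change -0.03, 95% interval -0.17 to 0.11). Gabbr2, the subunit that couples to the G protein, averaged 254.7 ± 8.81 CPM with EB and 262.7 ± 24.9 CPM with vehicle (-0.04, -0.20 to 0.11).

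Among the genes with at least 50 CPM, Glra3 and Glra2 had the largest SD between mice of the same group. Glra2, the alpha subunit gene best known from immature neurons, stood at 128.7, 97.8, 148.5 and 135.8 CPM in EB mice, against 121.1, 191.8 and 122.2 CPM in vehicle mice. Glra3, an alpha subunit gene of spinal pain pathways and forebrain, stood at 121.8, 126.1, 81.4 and 84.4 CPM in EB mice, against 119.5, 71.6 and 125.9 CPM in vehicle mice. Vehicle 2 was the highest mouse for Glra2 and the lowest for Glra3, and in each group the mice low in one tended to be high in the other. The Glra3 to Glra2 count ratio was 0.946, 1.29, 0.548 and 0.621 in EB mice and 0.987, 0.373 and 1.03 in vehicle mice, and no mouse lay between 0.621 and 0.946, with mice of both groups on either side. The within-group SD on the log2 scale was 0.386 for Glra3 and 0.313 for Glra2, above 99.4% and 98.9% of the 3792 genes with at least 50 CPM. The intervals were accordingly wide: the log2 change was -0.19 for Glra2 (95% interval -0.65 to 0.28) and -0.03 for Glra3 (-0.64 to 0.58).

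Glra1, the main alpha subunit gene of the adult spinal cord and brainstem, stood at 17.4, 19.5, 11.8 and 16.1 CPM in EB mice, against 19.7, 13.8 and 25.6 CPM in vehicle mice. Its groups overlapped, with vehicle 3 highest and EB 3 lowest, and its log2 change was -0.27 (95% interval -0.71 to 0.18). It was -0.04 without vehicle 3 and -0.48 without vehicle 2. Glrb, the beta subunit that binds the scaffold protein gephyrin, averaged 182.6 ± 18.5 CPM with EB and 200.4 ± 6.18 CPM with vehicle (log2 change -0.13, 95% interval -0.31 to 0.04). Of 6 markers of cerebellum and hindbrain, 3 were at 0 in all libraries, and their summed level ran from 0.123 to 0.843 CPM in EB mice and from 0.633 to 1.01 CPM in vehicle mice.

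GABA is made from glutamate by Gad1, the enzyme of the cell body's constant supply, and Gad2, the enzyme of nerve endings. Gad2 stood at 616.4, 678.0, 705.6 and 651.3 CPM in EB mice, against 483.2, 527.8 and 725.4 CPM in vehicle mice. Vehicle 3 was the highest mouse of all, and vehicle 1 and 2 lay below every EB mouse. The means were 662.8 ± 38.1 CPM with EB and 578.8 ± 128.9 CPM with vehicle (SD, n = 4 and n = 3), and the log2 change was 0.20 ± 0.12 (SE, 95% interval -0.08 to 0.47) with an adjusted p of 0.720 by edgeR. Without vehicle 1 the log2 change was 0.08, and without vehicle 3 it was 0.39 and Gad2 was called, with an adjusted p of 0.0418; over 17 alternatives its adjusted p ran from 0.0418 to 0.9998. Vehicle 3 was also the highest mouse for Slc32a1, Gabre, Gabra5, Gabrq, Glra1, Slc6a11 and Abat. The summed level of 8 transcription factor genes of GABA neurons (Dlx genes, Lhx6 and others, 7 of them tested and none at 0 in all libraries) ran from 15.1 to 26.8 CPM in EB mice, highest in EB 3, and from 17.8 to 19.9 CPM in vehicle mice, lowest in vehicle 3. Among vehicle mice, Dlx1, Dlx6, Lhx6 and Sp9 were lowest in vehicle 3, while Dlx2 and Dlx6os1 were highest there. The part of GABA neurons in the Gad2 values was not tested.

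Gad1 stood at 61.8, 69.2, 86.6 and 57.6 CPM in EB mice, against 59.5, 66.1 and 77.4 CPM in vehicle mice, a log2 change of 0.02 (95% interval -0.26 to 0.31). The groups covered the same range, with EB 3 highest and EB 4 lowest. The Gad2 to Gad1 count ratio was 9.80 ± 1.29 with EB and 8.49 ± 0.762 with vehicle (SD, n = 4 and n = 3), and it too overlapped. Slc32a1, which loads GABA and glycine into vesicles, stood at 28.7, 25.6, 23.8 and 29.7 CPM in EB mice, against 18.7, 21.9 and 32.4 CPM in vehicle mice. Its log2 change was 0.15 (95% interval -0.20 to 0.51), and 24.9% of its exonic bases overlap Gm14205 on the opposite strand. Per count, Slc32a1 was 0.0427 ± 0.00409 of the glutamate vesicle transporter gene Slc17a6 with EB and 0.0503 ± 0.0212 with vehicle. Gad2 was 1.06 ± 0.140 of Slc17a6 with EB and 1.19 ± 0.417 with vehicle. The groups overlapped in both ratios, and neither ratio takes gene length into account. Slc17a6 itself stood at 633.2 ± 55.6 CPM with EB and 499.6 ± 61.3 CPM with vehicle, without overlap, with an adjusted p of 0.111 by edgeR.

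**Figure D4:**
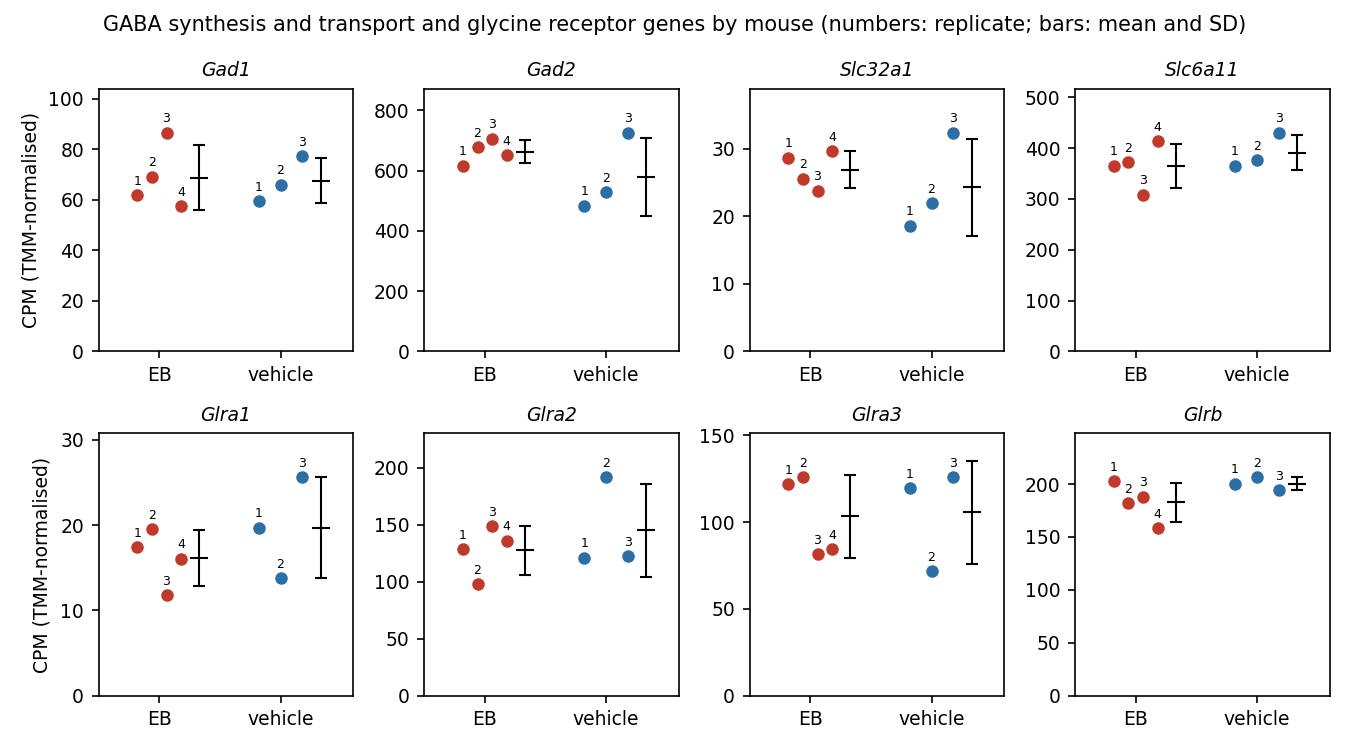
TMM-normalised CPM by mouse for GABA synthesis and transport genes (upper panels) and glycine receptor subunit genes (lower panels), EB in red on the left and vehicle in blue on the right, with replicate numbers and the mean and SD as bars; each y axis starts at 0. Vehicle 3 stands above all other mice for Gad2, at 725.4 CPM, and vehicle 2 is the highest for Glra2 and the lowest for Glra3.

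The tested uptake and breakdown genes had 95% intervals that included 0. Slc6a11, the GABA transporter of astrocytes, stood at 365.7, 372.1, 308.5 and 413.2 CPM in EB mice, against 365.8, 376.2 and 430.4 CPM in vehicle mice. EB 3 was the lowest and vehicle 3 the highest mouse, and the log2 change was -0.10 (95% interval -0.29 to 0.09). The summed level of 10 astrocyte markers ran from 1762 CPM, in EB 3, to 2510 CPM, in EB 4, among EB mice and from 2031 to 2462 CPM among vehicle mice, and all 10 were tested and had a negative log2 change; its part in the Slc6a11 values was not tested. Abat, the transaminase that breaks GABA down, averaged 462.4 ± 13.4 CPM with EB and 461.1 ± 29.3 CPM with vehicle, and its 95% interval of -0.12 to 0.13 was among the narrowest of the set.

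At the synapse, gephyrin (Gphn) holds receptors in place and neuroligin 2 (Nlgn2) joins inhibitory endings to their targets. Gphn averaged 99.1 ± 4.04 CPM with EB and 99.9 ± 8.80 CPM with vehicle (log2 change -0.01, 95% interval -0.18 to 0.16). Nlgn2 averaged 103.5 ± 9.44 CPM with EB and 108.6 ± 13.6 CPM with vehicle (-0.07, -0.28 to 0.14). Of the chloride cotransporters, the exporter Slc12a5 averaged 306.4 ± 19.7 CPM with EB and 313.3 ± 37.3 CPM with vehicle (-0.03, -0.21 to 0.14), and the importer Slc12a2 77.6 ± 3.77 CPM with EB and 82.0 ± 5.74 CPM with vehicle (-0.08, -0.25 to 0.09). The Slc12a5 to Slc12a2 count ratio was 3.99, 3.96, 3.69 and 4.16 in EB mice, against 3.10, 4.11 and 4.34 in vehicle mice. The EB mice lay inside the range of the vehicle mice, where vehicle 1 was lowest.

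A further 45 genes of these pathways were set beside the 28: rarer receptor subunits, other transporters, GABA, glutamine and glycine metabolism, receptor trafficking and adhesion, GABA-B auxiliary subunits and chloride transport regulators. Of the 41 that could be tested, 1 was called higher and 0 lower, where 0.745% and 0.207% of all tested genes were called. At an unadjusted p under 0.05 by edgeR, 2 were higher and 6 lower, where 4.87% and 4.18% of all tested genes were. All EB mice lay above all vehicle mice for 1 of the 41 and below them for 6, against 5.11% and 3.99% of all tested genes. The log2 changes of the 41 genes were negative for 28 and positive for 13, with a median of -0.08. The called gene was Mdga1, whose product binds neuroligin 2 and limits inhibitory synapses. It stood at 13.9, 16.1, 15.5 and 13.4 CPM in EB mice, against 6.57, 7.13 and 10.8 CPM in vehicle mice. All EB mice lay above all vehicle mice, and the log2 change was 0.86 ± 0.18 (SE, 95% interval 0.47 to 1.25) with an adjusted p of 0.0390 by edgeR. The call was lost when any 1 library but vehicle 3 was left out, with adjusted p from 0.0618 without EB 4 to 0.144 without vehicle 2 (0.134 without vehicle 1, 0.105 without EB 1, 0.139 without EB 2 and 0.101 without EB 3), and with library totals alone as scaling (0.0611); over 17 alternatives it ran from 0.000318 to 0.144.

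Next in order of p were Kctd12, Kctd8 and Slc6a9, none of which was called. Kctd12 and Kctd8 encode auxiliary subunits that shape GABA-B receptor currents. Kctd12 stood at 38.6, 45.7, 46.0 and 47.3 CPM in EB mice, against 60.4, 55.9 and 52.9 CPM in vehicle mice (log2 change -0.35 ± 0.10 SE, adjusted p = 0.163 by edgeR); DESeq2 gave 0.0410, in a range of 0.0410 to 0.840 over 17 alternatives. Kctd8 stood at 13.0, 11.7, 13.8 and 14.4 CPM in EB mice, against 16.9, 17.3 and 21.2 CPM in vehicle mice (-0.48 ± 0.14, adjusted p = 0.170 by edgeR). Both had all EB mice below all vehicle mice, and the other 2 genes of this kind, Kctd12b and Kctd16, overlapped, with log2 changes of -0.16 and -0.03. Slc6a9, a glycine transporter found mainly in glia, stood at 10.7, 10.4, 6.66 and 7.98 CPM in EB mice, against 12.7, 11.9 and 15.6 CPM in vehicle mice (-0.57 ± 0.18, adjusted p = 0.251 by edgeR).

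**Figure D5:**
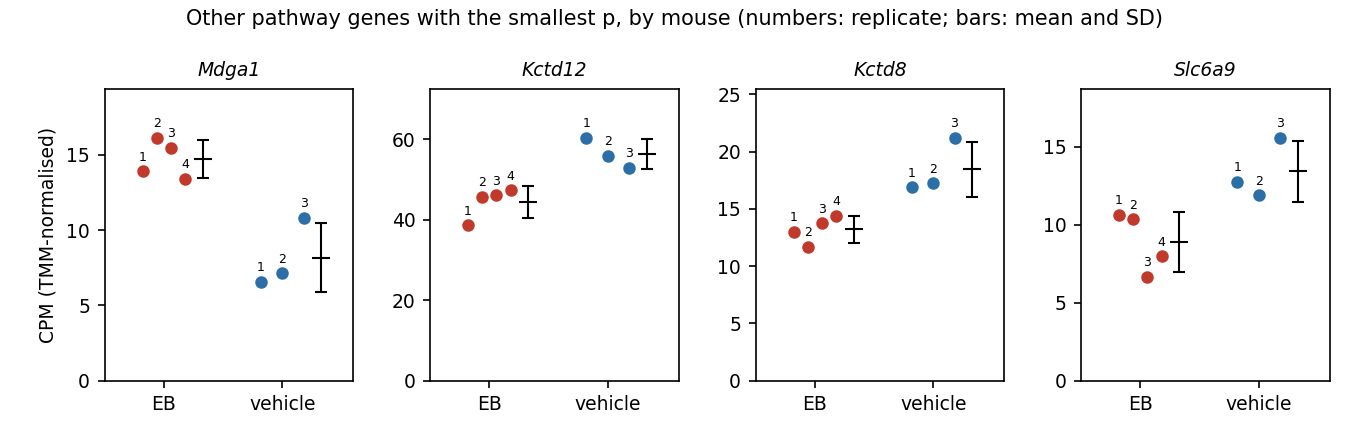
TMM-normalised CPM by mouse for the 4 further pathway genes with the smallest p, EB in red on the left and vehicle in blue on the right, with replicate numbers and the mean and SD as bars; each y axis starts at 0. All EB points lie above the vehicle points for Mdga1 and below them for Kctd12, Kctd8 and Slc6a9, and only Mdga1 was called.

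Gabrp had 0 counts in all libraries, and Gabrr1, Gabrr2 and Gabrr3, the rho subunits best known from retina, were too low to test. Slc6a13, a GABA transporter of the meninges and vessel surroundings, stood at 0.882, 1.54, 4.59 and 5.31 CPM in EB mice, against 24.4, 2.28 and 2.73 CPM in vehicle mice. Vehicle 1 stood far above all others, and it also had the highest summed level of 7 mural and fibroblast markers, all tested, 308.4 CPM, where EB mice ran from 140.7 to 239.9 CPM and the other vehicle mice were at 121.3 and 198.2 CPM; their part in the Slc6a13 values was not tested.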

How the data were processed

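Each library is 1 mouse, and the deposited files hold raw counts per gene (whole numbers, not normalised). HISAT2, HTSeq, DESeq2 and the build mm10 are named, without their roles, per the submitters' processing notes; versions, annotation and strand setting were not given in any source used here. Chi-square comparisons of replicate pairs gave 18.6 to 185 for each degree of freedom, so no pair was merged.

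Genes were kept by filterByExpr (minimum count 10), which left 18387 of 31222 genes with any count, and library sizes were scaled by TMM. The quasi-likelihood test of edgeR 4.0.16 (R 4.3.3; robust glmQLFit, current method) had group as its only term. Adjusted p-values are Benjamini-Hochberg over all tested genes. The biological coefficient of variation was 22.3%. Alternatives used DESeq2 1.42.0, limma 3.58.1 (voom), other scalings and filters, and each library left out. Levels per length use joined exons of GENCODE M21. They were planned on a scale with the same sum in each library. TMM CPM per kilobase is given instead, because library composition was judged to dominate the planned scale, which was not tested. The test was tried on simulated counts. The 28 genes and the other lists were chosen with earlier results of these data known. Per-mouse values are given for genes at an unadjusted p under 0.05, for 1 to 3 abundant or defining genes of each role and for the 4 pathway genes with the smallest p; Gabrg1, Glra1, Slc6a13 and Slc17a6 were singled out after their values were seen. Some further genes are not reported here.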

Additional observations from a re-analysis of the deposited data

Results flagged for a closer look

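Of 39 sets of EB values examined for 1 mouse standing far from the rest, 2 were marked, and chance alone marks about 1 set in 20. For Gabrb1, EB 1 stood at 1191 CPM, where the other EB mice lay between 1100 and 1105 CPM. For the Slc32a1 to Slc17a6 count ratio, EB 4 stood at 0.04875, where the other EB mice lay between 0.0401 and 0.0413.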

How the results depend on the processing

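The 30 log2 changes tested (26 genes of the set and 4 further pathway genes) were each recomputed in 17 other ways, 510 comparisons in all: 459 kept direction and side of the threshold, 6 passed it where they had not, 8 no longer did, all of Mdga1, and 37 changed sign. The changes of sign fell in 13 genes, whose changes were at most 0.19 in size, and 11 of the 26 genes of the set, with Kctd12, Kctd8 and Slc6a9 of the further pathway genes, were negative in every setting. Over all genes, 232 were higher and 119 lower with DESeq2 (66.1% higher, against 78.3%), 240 and 135 with no filter on low counts (64% higher), 17 lower with library totals as scaling and 64 lower at an adjusted p under 0.1; leaving out each mouse gave 78 to 122 higher and 20 to 45 lower. Genes of the set called lower numbered 1 with DESeq2 and 2 with no filter, and with each mouse left out 0 to 1 higher and 0 to 1 lower. Further pathway genes called higher numbered 0 with library totals and 0 without EB 4 and vehicle 1 together, an alternative chosen after seeing the data, and 0 to 1 with each mouse left out; called lower, 1 with DESeq2 and 1 (Slc38a1) without EB 4 and vehicle 1. The cause was not tested.

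Signs changed as follows. Gabrd was -0.011 with DESeq2, -0.16 with limma-voom and -0.0089 with edgeR's earlier quasi-likelihood method (added after seeing the data). Glra3 was 0.025 with limma-voom and 0.0038 with library totals. Gabrq was 0.017 and Gphn 0.022 with library totals, and Abat -0.0012 with upper-quartile factors. With each mouse, or EB 4 and vehicle 1 together, left out, the log2 change ran from -0.036 to 0.086 for Gabrg3, -0.42 to 0.26 for Gabrd, -0.057 to 0.040 for Gabrq, -0.082 to 0.018 for Gabbr1, -0.12 to 0.017 for Gabbr2, -0.34 to 0.069 for Glra2, -0.25 to 0.16 for Glra3, -0.10 to 0.13 for Gad1, -0.044 to 0.40 for Slc32a1, -0.035 to 0.053 for Abat, -0.092 to 0.043 for Gphn, -0.18 to 0.0039 for Nlgn2 and -0.13 to 0.031 for Slc12a5. The median level of the 28 genes per kilobase was 31.7 CPM, and 72.9 with median transcript lengths or 113 with each library scaled to the same sum over genes (added after seeing the data). With library totals as scaling, 16 of 26 genes were negative, with a median of -0.02. No paired analysis was possible because replicate numbers here only name mice and tie none of them across groups. With 4 EB and 3 vehicle mice the intervals limit what could be detected, and for Gabrd, at 9 to 53 counts, depth limits it too.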
